A study of Homo sapiens with 14 samples.

Results

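Collagens, laminins and the glycoproteins that hold them together were followed gene by gene in glioblastoma cells depleted of the long non-coding RNA LINC00152. The 48 members were chosen by name, with earlier results of these data known, out of 20992 named genes on the array. They were read by 67 probes whose accessions map to them. By role they are 6 fibrillar collagen chains, 7 basement membrane collagen chains, 7 other collagen chains, 10 laminin chains, 5 basement membrane linkers, 3 genes for fibronectin and fibrillins, 6 matricellular glycoproteins and 4 proteoglycans. RNA came from A172 and U87-MG, established human glioblastoma cell lines, and was read on 14 single-colour Agilent arrays, which report the brightness of dye-labelled RNA bound to printed probes. In A172, 3 cultures transfected with a negative control siRNA were compared with 3 transfected with an siRNA against exon 1 of LINC00152 (siLINC00152). In U87-MG there were 4 cultures of each kind, and the labels place every harvest 40 h after transfection. The labels call the 3 A172 sets and the 4 U87-MG sets independent biological experiments and number them alike in both groups, so that each set forms a pair of 1 control and 1 siLINC00152 array.

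The extracellular matrix is built from fibrillar collagens, which form tension-bearing fibres, and from basement membranes, in which laminin trimers and type IV collagen form networks joined by nidogens, perlecan and agrin. Fibronectin, tenascin, thrombospondins, SPARC and periostin sit on these scaffolds and change how cells attach and move. Normal brain parenchyma holds little fibrillar collagen, and glioblastoma is known for matrix laid down around its vessels and along its invasive edge.

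The siRNA acted on its target in both lines. LINC00152, whose current symbol is CYTOR, had a log2 signal of 2.52 ± 0.10 (SD, n = 3) in A172 controls and -0.10 ± 0.33 (SD, n = 3) with siLINC00152, where 0 is the 75th percentile of all spots of an array. The fitted change was -2.61 (adjusted p = 0.000692), which left 16.3% of the control signal. In U87-MG the signal was 1.82 ± 0.09 (SD, n = 4) in controls and -0.91 ± 0.21 (SD, n = 4) with siLINC00152, a change of -2.73 (adjusted p = 2.73e-05) that left 15.1%. With normexp background correction the changes were smaller, -2.23 in A172 and -1.52 in U87-MG, so that a larger share was left. Of 3 probes of the homologous transcript MIR4435-2HG, 1 was called in both lines, with changes of -2.44 and -2.97. The others were called in neither line, with changes of -1.53 and -2.08 for A_21_P0012078 and -0.31 in each line for A_33_P3269678.

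The U87-MG arrays were the dimmer ones, which limits what can be said of weak matrix genes in that line. The array's 75th percentile, in intensity units, lay between 131 and 284 in A172 and between 33.0 and 69.0 in U87-MG. A spot was well above background, by the scanner software's own test, for 57.3% to 69.0% of spots in A172 and 35.7% to 48.3% in U87-MG. U87-MG pair 3 was the dimmest, with 35.7% in its control and 40.4% in its siLINC00152 array. On the log2 scale used here, the weakest probe still well above background lay between -4.32 and -3.27 on the A172 control arrays and between -2.35 and -1.12 on the U87-MG control arrays. A low matrix transcript could therefore be seen in A172 and missed in U87-MG at the same relative level.

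Marker genes matched the glioma label in part. Of 9 glioma markers, the intermediate filaments VIM and NES, the growth factor receptor EGFR and the hyaluronan receptor CD44 were well above background on all 14 arrays. The astrocyte markers S100B and FABP7 were so on 0 arrays and GFAP on 1. SOX2 and OLIG2 completed the list. By array, 6 to 7 of the 9 were well above background in A172 and 4 to 5 in U87-MG. For the knockdown, 6 could be tested in A172 and 4 in U87-MG. Of 4 epithelial markers, only the cadherin CDH1 was above background on 0 arrays. On A172 control array 1, 3 of the 4 were above it, and on every other array 1 was. Among 7 fibroblast and pericyte markers, PDGFRA and FAP were on 0 arrays above background, while PDGFRB and RGS5 were above it in A172 and not in U87-MG, and ACTA2 and DES were above it in both lines. Immune markers (CD3E, CD14 and a PTPRC probe) and endothelial markers (CDH5, VWF and KDR) also gave signal well above background in both lines. By the brightest probe of each gene, 4 of 4 immune markers with a probe were so on every A172 array, and 3 to 4 on the U87-MG arrays. Of 4 endothelial markers, 4 were so on every A172 array and 2 to 3 on the U87-MG arrays. What those signals stem from was not tested. In such bulk RNA, fewer cells making a transcript and less of it per cell cannot be told apart.

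Many matrix transcripts differed in level between the control arrays of the lines. Most fibrillar collagens, the type IV chains COL4A1 and COL4A2, SPARC and thrombospondin 2 were higher in A172, whereas fibronectin, tenascin C, TGFBI and the alpha 3 chain of collagen VI were higher in U87-MG. Many of these were well above background in both lines. A gene was tested here when a probe was well above background on at least 3 control arrays of a line, and called when its adjusted p in limma was below 0.2 and its log2 difference was above 0.5 in size. Of 49 member probes tested, 37 were called. Among these, 23 were lower in U87-MG (46.9%, beside 27.1% of all 28250 probes tested) and 14 were higher in U87-MG (28.6%, beside 27.5%). The called probes belong to 33 of 37 tested genes. In 10 of the 37 calls, 8 of them lower in U87-MG, a line had no control array well above background. For such probes the difference has at most a bound, and 2 of the 10 have none. The median log2 difference, U87-MG minus A172, was -0.37 over member probes and -0.02 over all probes, and -0.08 and 0 with such probes set to their bound. Each line was run on its own slides, so that line and slide cannot be told apart in any of these values. The scaling matters too: with normexp background correction the median moved to 0.25 over all probes and -0.14 over member probes, with quantile normalization to -0.11 and -0.53 and in the authors' own values to -0.12 and -0.52, and the share of called probes that were higher in U87-MG went from 50.4% to 66.4% with normexp. Normexp also drew in many of the large differences, such as those of FN1 (from 6.09 to 4.93), TNC (from 6.96 to 4.97), COL5A2 (from -6.12 to -4.78) and LAMB3 (from 2.35 to 1.45). Some smaller ones grew, such as those of LAMB2 (from -0.60 to -1.08), COL6A1 (from -0.90 to -1.43) and THBS1 on A_24_P142118 (from -0.52 to -0.95).

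**Figure D1:**
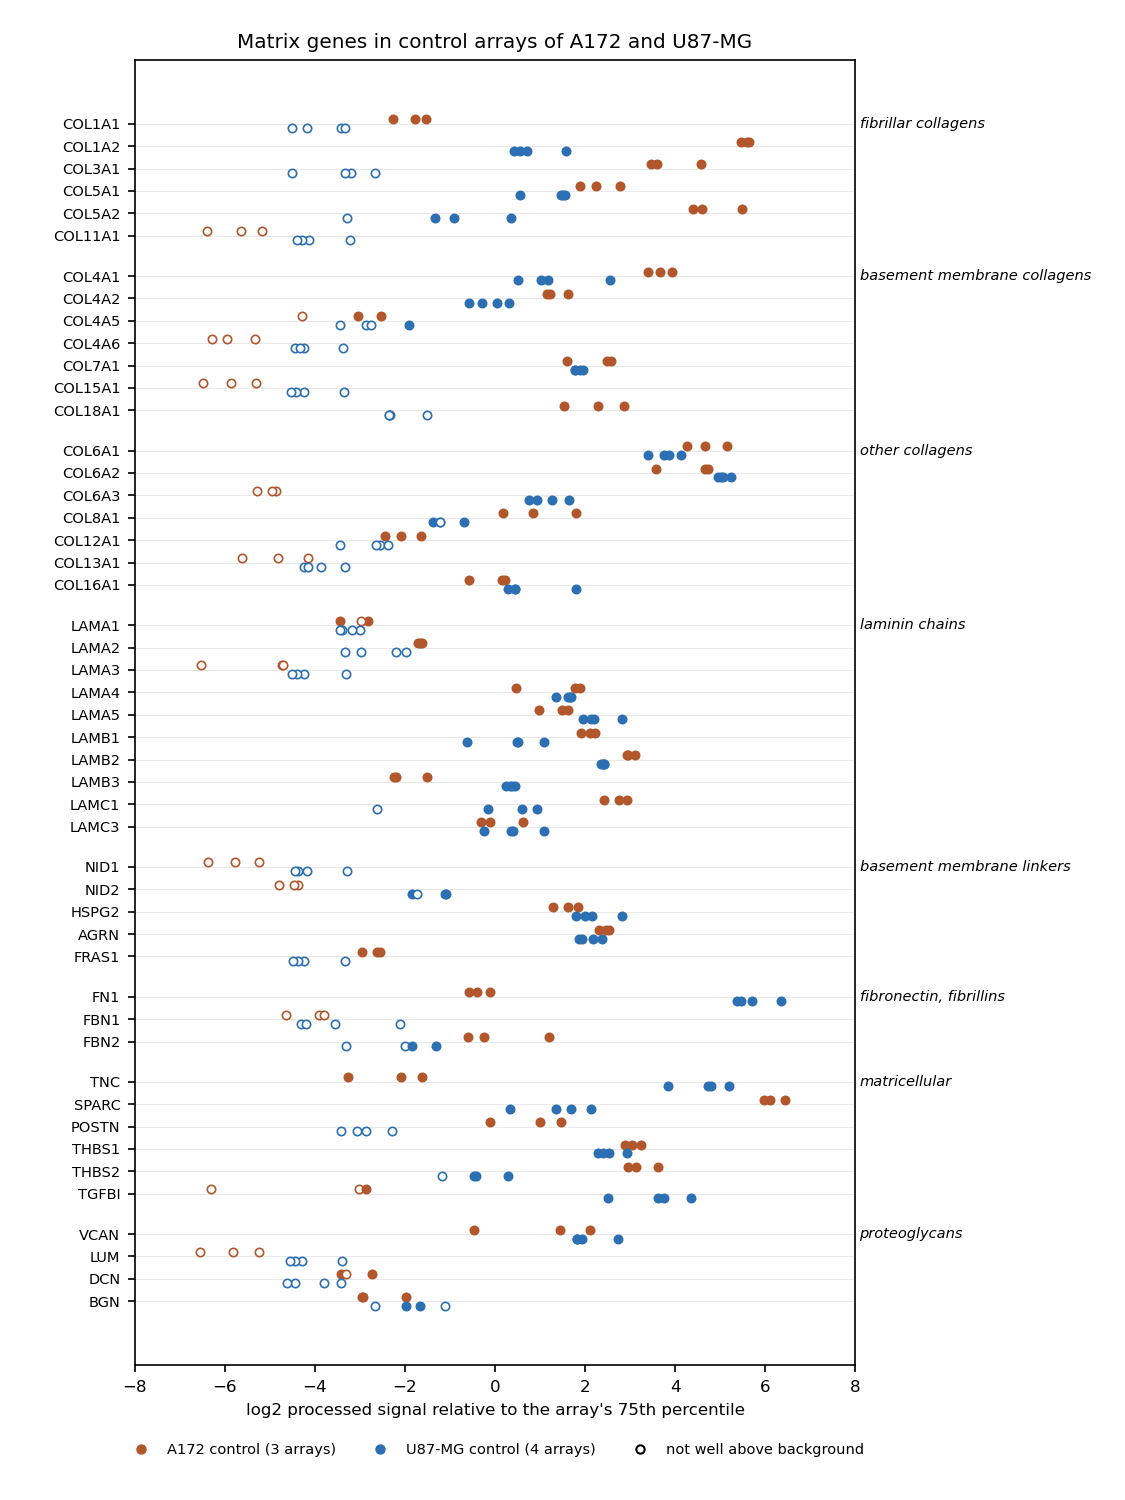
Log2 processed signal relative to the array's 75th percentile (horizontal axis) for the brightest probe of each of the 48 genes, with 1 point per control array of A172 (brown, 3 arrays) and U87-MG (blue, 4 arrays) and open points where the probe was not well above background. Most fibrillar collagens and SPARC lie to the right in A172, and FN1, TNC, TGFBI and COL6A3 to the right in U87-MG.

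Among the fibrillar collagens, all 5 tested genes were higher in A172, although COL1A1 turned under normexp. That is 6 of 6 tested probes, beside 27.1% of all probes called in that direction. COL1A2, the alpha 2 chain of type I collagen, read 5.48, 5.64 and 5.59 on the A172 control arrays and 0.42, 0.55, 0.72 and 1.59 on those of U87-MG. The groups were far apart, with every A172 array above every U87-MG array. The fitted difference was -4.75 ± 0.33 (SE; adjusted p = 1.64e-07), or 26.9-fold more signal in A172. COL3A1, the chain of type III collagen, read 4.59, 3.61 and 3.46 in A172 and was well above background on 0 of 4 U87-MG control arrays. For such genes a fold is given only as a lower bound. On each array of the dimmer group the probe's own signal, or the weakest signal still well above background if that is higher, was taken, and the mean of these was set against the mean of the brighter group. The same was done where only some arrays of the dimmer group were above background. A bound holds for this scaling only. COL3A1 was at least 56.2-fold higher in A172, and 19.2-fold under normexp. COL5A2, a chain of the type V collagen that nucleates fibrils, had a difference of -6.12 ± 0.73 (adjusted p = 2.74e-05). U87-MG control 3 was below background for it, which makes it at least 47.8-fold higher in A172 by that bound. Without U87-MG pair 3 the difference was -5.46, or 44.0-fold, and under normexp it was 27.5-fold. The 2 probes of COL5A1 gave differences of -1.03 and -2.70. COL1A1, on 0 of 4 U87-MG controls above background, was called with a bound of at least 1.05-fold, and under normexp its difference turned to 0.28.

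Of the 4 basement membrane collagens tested, 3 were called, all higher in A172 (beside 27.1% of all probes called in that direction). COL4A1 and COL4A2, the main chains of the type IV network, were 5.09-fold and 2.75-fold higher in A172 (differences -2.35 and -1.46, adjusted p = 0.00091 and 0.000942). COL18A1, the source of endostatin, was at least 17.8-fold higher in A172, since 0 of 4 U87-MG control arrays detected it, and 6.02-fold under normexp. COL7A1, the anchoring fibril collagen, gave -0.38 and was not called (adjusted p = 0.423), although it was called without A172 pair 2 (-0.69, adjusted p = 0.081) and under normexp (-0.84). Among the other collagens the lines divided. COL6A3 read 0.92, 0.75, 1.27 and 1.64 in U87-MG controls and was well above background on 0 of 3 A172 control arrays, so that it was at least 31.6-fold higher in U87-MG (adjusted p = 2.88e-09), and 6.27-fold under normexp. Its partners in the collagen VI trimer were made by both lines: COL6A1 was lower in U87-MG by a difference of -0.90 and COL6A2 higher by 0.75, the latter not called without A172 pair 1 (0.37) or under normexp (0.11). A second COL6A2 probe, A_23_P310956, gave 0.10 and was not called (adjusted p = 0.838). COL8A1, a short-chain collagen of vessel walls, was at least 4.10-fold higher in A172, with 3 of 4 U87-MG controls above background, and 2.39-fold higher under normexp. COL12A1 was called higher in A172, but 0 of 4 U87-MG controls were above background for it and its A172 signal was too low to give a bound, so no fold is given. Without A172 pairs 1 or 3 it was not called (adjusted p = 0.451 and 0.303), nor without U87-MG pairs 1 or 3 (0.209 and 0.333), and its difference was 0.45 under normexp. COL16A1 was called higher in U87-MG by a narrow margin (0.81). It was not called without A172 pair 1 (0.55, adjusted p = 0.350) or U87-MG pair 3 (0.46), nor under normexp (0.40), and its other probe, A_23_P160318, gave 0.14 (adjusted p = 0.694).

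Laminin chains were split between the lines. LAMB3, the beta 3 chain found in epithelial laminin, read -2.25, -1.52 and -2.20 in A172 controls and 0.25, 0.45, 0.33 and 0.39 in U87-MG controls. All U87-MG arrays lay above all A172 arrays, and the difference was 2.35 ± 0.22 (SE; adjusted p = 2.97e-06), or 5.09-fold. LAMA5, the alpha chain of many adult basement membranes, was 1.89-fold higher in U87-MG, but not called under normexp (0.29). In the other direction LAMB1 and LAMB2, shared by many laminin trimers, were 3.28-fold and 1.52-fold higher in A172, although a weaker LAMB2 probe, A_33_P3223780, was not called (-0.37, adjusted p = 0.361). LAMC1, the most widely used gamma chain, was at least 6.25-fold higher in A172. It was below background on U87-MG control 3 (-2.62), and without that pair the difference of -3.02 became -2.25, or 4.75-fold. Under normexp it was 4.72-fold. LAMA2, of muscle and nerve laminin, was at least 1.18-fold higher in A172 but had a difference of 0.31 under normexp. LAMA4, the alpha chain of vascular laminin, was not called (difference 0.20, adjusted p = 0.742, and -0.24 under normexp), nor was the brightest probe of LAMC3 (0.34, adjusted p = 0.452), except without A172 pair 2 (0.61, adjusted p = 0.193). The other LAMC3 probe, A_33_P3277532, was above background on 0 of 4 U87-MG controls and was called only under normexp (0.66). Of the linkers, NID2, the nidogen that ties laminin to collagen IV, was at least 5.24-fold higher in U87-MG, and 2.50-fold under normexp. FRAS1 was seen in A172 and on 0 U87-MG arrays. Its A172 signal was too low to give a bound, and the called difference turned to 0.55 under normexp. Agrin (AGRN) gave -0.34 and was called only under normexp (-0.71). The 4 probes of HSPG2, which encodes perlecan, gave control differences between -0.08 and 0.62. Of these, 2 were called, and neither was without A172 pair 3 (0.47 and 0.37) or U87-MG pair 3 (0.41 and 0.36), under normexp (0.12 and 0.09) or in the authors' values (both under 0.5).

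Several glycoproteins were far apart between the lines. FN1, the gene of fibronectin, read -0.12, -0.58 and -0.40 in A172 controls and 5.47, 5.38, 5.72 and 6.35 in U87-MG controls. The difference was 6.09 ± 0.30 (SE; adjusted p = 9.68e-09), or 68.3-fold. TNC, the tenascin abundant in gliomas, read -3.26, -1.62 and -2.09 in A172 and 4.73, 4.80, 3.84 and 5.21 in U87-MG. It was 125-fold higher in U87-MG (difference 6.96 ± 0.42, adjusted p = 4.78e-08). For both genes the ranges of the lines were several log2 units apart. TGFBI, an adhesion protein induced by TGF-beta, read 3.62, 3.76, 2.51 and 4.35 in U87-MG but was well above background on 1 of 3 A172 controls. It was at least 125-fold higher in U87-MG by the bound used above, 91.1-fold without A172 pair 1 and 21.2-fold under normexp. SPARC, a collagen-binding glycoprotein, went the other way with 6.10, 6.45 and 5.98 in A172 and 1.36, 1.68, 0.34 and 2.14 in U87-MG, a 27.8-fold gap (difference -4.80 ± 0.39, adjusted p = 8.06e-07). THBS2 was at least 12.7-fold (3 of 4 U87-MG controls above background) and periostin (POSTN) at least 6.56-fold higher in A172. Under normexp these were 8.07-fold and 2.76-fold. The fibrillin gene FBN2 was well above background on 2 of 4 U87-MG controls and was at least 3.23-fold higher in A172, and 1.77-fold higher under normexp. The 2 probes of THBS1, thrombospondin 1, disagreed in sign: A_24_P142118 gave -0.52 and A_33_P3415820 gave 1.41. The former was not called without A172 pair 2 (-0.43, adjusted p = 0.225), U87-MG pair 2 (-0.48) or U87-MG pair 4 (-0.44). Among the proteoglycans, VCAN (versican, 1.05) and BGN (biglycan, 0.76) were called higher in U87-MG by narrow margins. VCAN was not called without A172 pair 1 (0.30, adjusted p = 0.564) or without any 1 of the U87-MG pairs (adjusted p = 0.259, 0.234, 0.201 and 0.332), nor with normexp (0.49), quantile normalization (adjusted p = 0.236) or the authors' values (adjusted p = 0.244). BGN was well above background on 2 of 4 U87-MG controls and was not called without A172 pairs 1 (0.60) or 3 (0.61) or U87-MG pairs 1 (0.70) or 3 (0.52).

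Some members gave no usable signal. On 0 of 14 arrays were COL11A1, COL4A6, COL15A1, COL13A1, LAMA3, NID1, FBN1 and LUM well above background, 8 genes in all. In A172 a further 4 genes (COL4A5, COL6A3, NID2 and TGFBI) had no probe that could be tested for the knockdown, which left 36 genes and 49 probes. In U87-MG a further 11 (COL1A1, COL3A1, COL4A5, COL18A1, COL12A1, LAMA1, LAMA2, FRAS1, FBN2, POSTN and DCN) dropped out, which left 29 genes and 39 probes. In both lines 26 genes with 36 probes could be tested, and over these the difference between the effects was computed as the A172 change minus the U87-MG change.

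A few matrix genes were called for the knockdown. In A172 the laminin chains LAMA4 and LAMB3 and the glycoprotein SPARC fell and THBS1 rose. In U87-MG COL1A2 and LAMB3 rose and VCAN fell, and LAMA4 rose on a weaker probe only (0.59). All of these calls come from the fit that sets each siLINC00152 array against the control of its own pair. Without that pairing, limma called 0 of 49 member probes in A172, where 52 of 28338 probes passed (0.183%), and 0 of 39 in U87-MG, where 11 of 21921 passed (0.0502%). A difference between the lines was called for 0 of 36 member probes and 2 of 21163 in all (0.00945%). At an unadjusted p below 0.05 stood 4 member probes in A172, 2 in U87-MG and 3 for the difference, beside 657, 568 and 209 of all probes.

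Replicate pairs shared much of their variation, and the fit with the pair as a block called more. In A172, 4 of 49 member probes were lower (8.16%, beside 2.22% of all probes) and 2 were higher (4.08%, beside 1.12%). In U87-MG, 1 of 39 was lower (2.56%, beside 2.78%) and 3 were higher (7.69%, beside 2.77%). A difference of effects was called for 5 of 36 member probes (13.9%, beside 1.32%). Counts of 1 to 5 probes leave these shares imprecise. The members were also chosen with earlier results of these data known, so that an excess over all probes cannot be taken at face value. The same holds for the shares of the further gene lists below. In A172 the pair is also the slide, so that the block takes out both. Median changes were small: -0.08 over member probes in A172 (all probes 0.02) and -0.07 in U87-MG (all probes -0.02). The median size of change without regard to sign was 0.26 for members and 0.14 for all probes in A172, and 0.18 and 0.17 in U87-MG. Of the member probes, 13 of 49 in A172 were lower in all 3 pairs (26.5%, beside 16.9% of all probes) and 7 were higher in all 3 (14.3%, beside 19.4%). In U87-MG 5 of 39 were lower in all 4 pairs (12.8%, beside 13.9%) and 9 were higher (23.1%, beside 16.6%). The fitted change had the same sign in both lines for 20 of 36 member probes (55.6%), beside 54.3% of all probes.

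**Figure D2:**
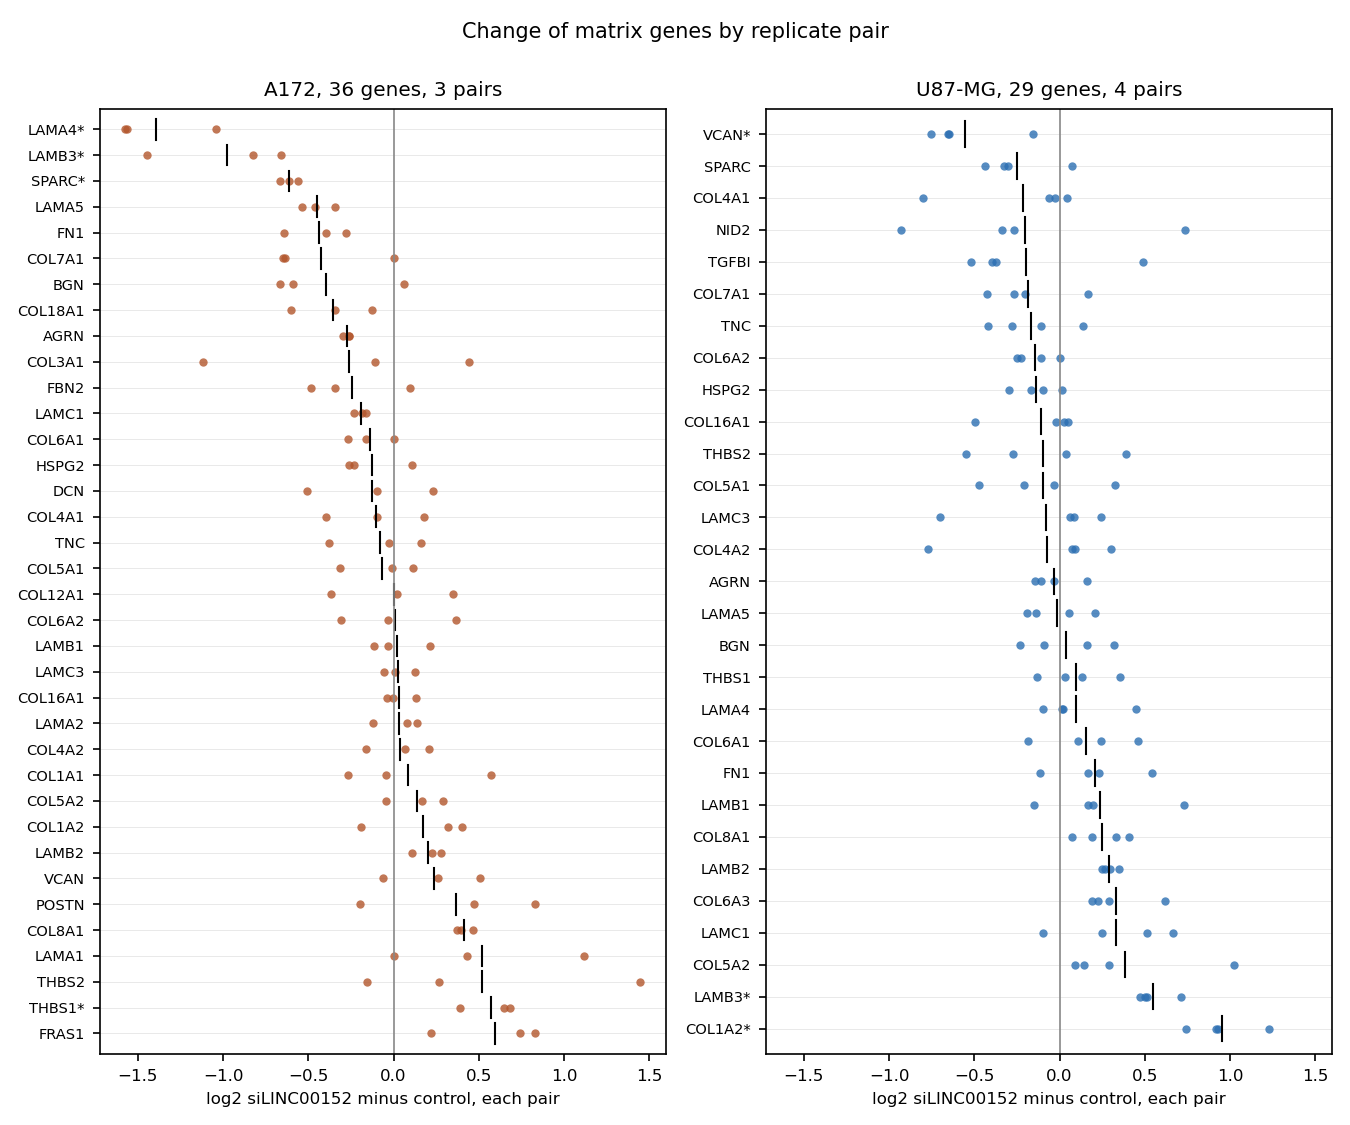
Log2 siLINC00152 minus control in each replicate pair (points) and the fitted change (black bar) for the brightest probe of each tested matrix gene, with A172 on the left (36 genes, 3 pairs) and U87-MG on the right (29 genes, 4 pairs), sorted by the fitted change. An asterisk marks genes called in the fit with the replicate block: LAMA4, LAMB3 and SPARC below 0 and THBS1 above 0 in A172, and COL1A2 and LAMB3 above 0 and VCAN below 0 in U87-MG.

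Of the laminin chains, LAMA4 and LAMB3 were called, and LAMB3 in opposite directions in the lines. With the block 3 of 13 tested laminin probes were called in A172, all lower (beside 2.22% of all probes), from 2 of 9 tested genes. In U87-MG 2 of 10 were called, both higher (beside 2.77%), from 2 of 7 tested genes, LAMA4 there only on a weaker probe. LAMA4 encodes the alpha 4 chain of laminins in vessel walls and other mesenchymal basement membranes. Its brightest probe (A_33_P3308749) read 0.47, 1.77 and 1.90 in A172 controls and -1.10, 0.20 and 0.86 with siLINC00152. Control 1 lay below 1 siLINC00152 array, so the groups overlapped, yet each siLINC00152 array lay below the control of its own pair. The change was -1.39 ± 0.16 (SE; adjusted p = 0.0108 with the block, 1.00 without it), which left 38.1% of the control signal. The call held in all 9 alternatives run with the block, with changes from -1.57 to -1.13. In U87-MG the same probe read 1.66, 1.36, 1.62 and 1.68 in controls and 1.69, 1.26, 2.07 and 1.69 with siLINC00152. These values overlapped throughout, with a change of 0.10 (adjusted p = 0.696). The difference between lines, -1.49 ± 0.20 (SE; adjusted p = 0.0408), was called in all 9 alternatives as well.

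Other LAMA4 probes gave a partly different picture. A_33_P3308744 read -1.59, -0.36 and -0.33 in A172 controls and -3.14, -1.79 and -1.24 with siLINC00152. Each pair was lower, and the change of -1.30 (adjusted p = 0.0700) was called, but it was not called without A172 pair 1, 2 or 3 (adjusted p = 0.352, 0.362 and 0.229), and under normexp it was -0.59. On U87-MG arrays it read -0.47, -0.45, -1.40 and 0.22 in controls, the third of these not well above background, and -0.06, -0.21, 0.05 and 0.49 with siLINC00152. That is higher in 4 of 4 pairs with overlapping groups, and the change of 0.59 (adjusted p = 0.176) was called in 1 of 9 alternatives. Normexp took it to 0.15, and without U87-MG pair 3 it was 0.30. Leaving out any 1 pair of either line ended the call: without U87-MG pairs 1, 2, 3 and 4 the adjusted p was 0.249, 0.215, 0.281 and 0.206, and without A172 pairs 1, 2 and 3 it was 0.206, 0.235 and 0.225. Between the lines the difference was -1.89 (adjusted p = 0.0731), and 0.249, 0.254 and 0.233 without A172 pairs 1, 2 and 3. With normexp it was -0.75. A further probe, A_33_P3391596, was lower in all 3 A172 pairs by a change of -0.31 that was not called (adjusted p = 0.677).

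LAMB3 moved down in A172 and up in U87-MG. Its A172 values were -2.25, -1.52 and -2.20 in controls and -2.91, -2.97 and -3.03 with siLINC00152, while in U87-MG they were 0.25, 0.45, 0.33 and 0.39 in controls and 0.96, 0.93, 0.85 and 0.89 with siLINC00152. In neither line did the groups overlap: every siLINC00152 array was below every control in A172 and above every control in U87-MG. The A172 change was -0.98 ± 0.16 (SE; adjusted p = 0.0404 with the block, 0.346 without it), leaving 50.8%. The U87-MG change was 0.55 ± 0.13 (SE; adjusted p = 0.0831), or 146% of control. The difference between lines of -1.53 ± 0.20 (SE; adjusted p = 0.0388) was called in all 9 alternatives, at -0.53 under normexp. The separate calls were less firm. In A172 the call was lost without pair 2 (-0.74, adjusted p = 0.207) or pair 3 (-1.05, adjusted p = 0.209), and in U87-MG without pair 1 (0.50, adjusted p = 0.202). With normexp the changes shrank to -0.27 and 0.25, under the 0.5 that a call needs. Leaving out U87-MG pair 3, the dimmest, made the A172 change pass without the block too (adjusted p = 0.176).

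The remaining laminin chains shifted less, and none of them was called in either fit. LAMA5 read 0.97, 1.50 and 1.62 in A172 controls and 0.51, 1.15 and 1.08 with siLINC00152, lower in 3 of 3 pairs with overlapping groups. Its change of -0.45 had an adjusted p of 0.195 with the block but was too small to be called. LAMC1 read 2.94, 2.76 and 2.43 in A172 controls and 2.76, 2.60 and 2.20 with siLINC00152 (change -0.19, adjusted p = 0.862). LAMA1, the alpha chain of embryonic basement membranes, read -2.82, -2.97 and -3.44 in controls, the middle value not well above background, and -2.82, -2.54 and -2.33 with siLINC00152 (change 0.52, adjusted p = 0.700). LAMB2 stood out for its regularity. Its brightest probe read 3.11, 2.93 and 2.95 in A172 controls and 3.33, 3.21 and 3.06 with siLINC00152, and in U87-MG 2.35, 2.43, 2.41 and 2.39 against 2.69, 2.69, 2.66 and 2.69. It was higher in 3 of 3 and 4 of 4 pairs, and in U87-MG the groups did not overlap. The changes of 0.20 (adjusted p = 0.611) and 0.29 (adjusted p = 0.136) were under the size needed for a call.

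**Figure D3:**
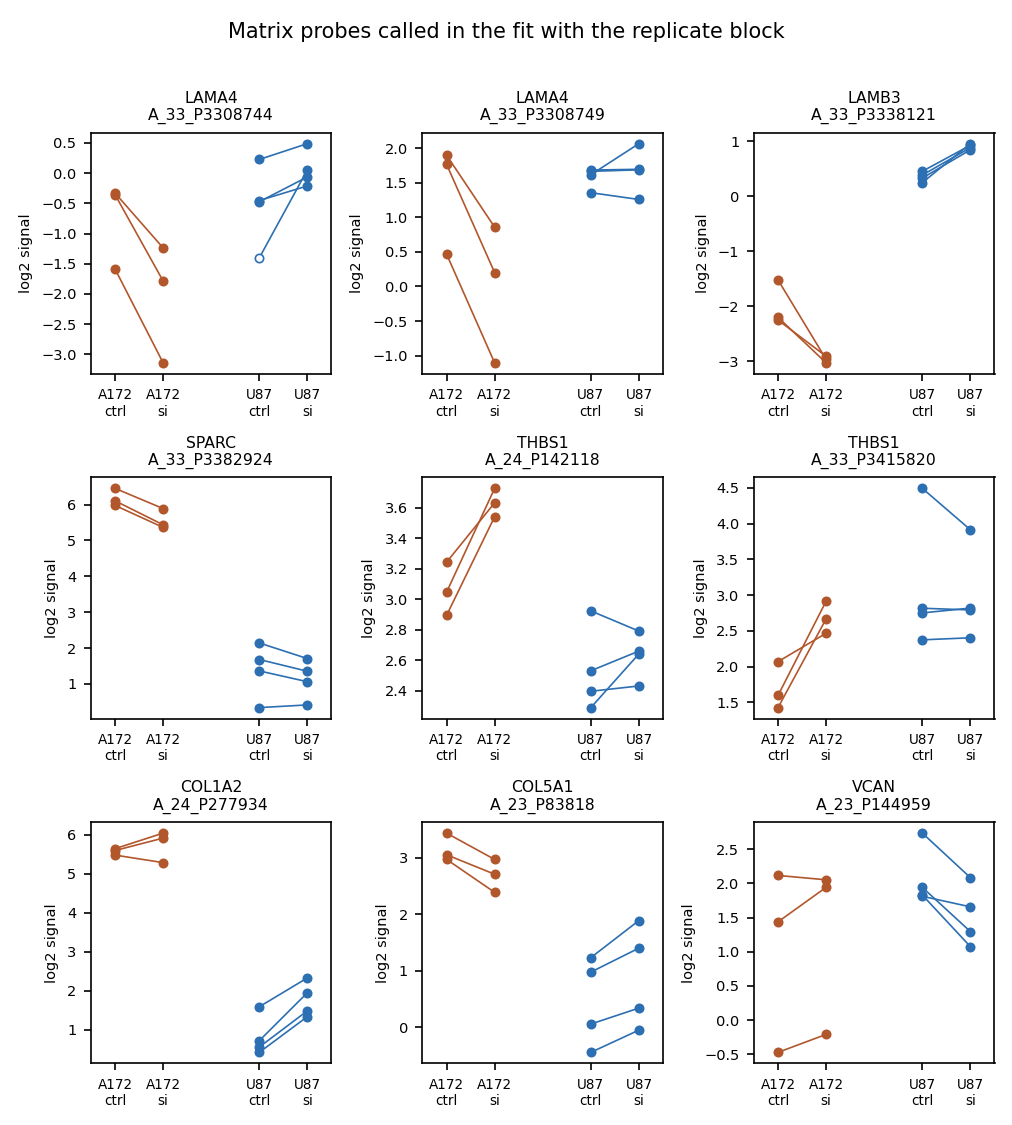
Log2 signal (vertical axis) of the 9 matrix probes called with the replicate block in A172, in U87-MG or for the difference between lines, with lines joining the control (ctrl) and siLINC00152 (si) array of each pair for A172 (brown, 3 pairs) and U87-MG (blue, 4 pairs), and open points where a probe was not well above background. LAMB3 falls in all A172 pairs and rises in all U87-MG pairs, and LAMA4 falls in all A172 pairs.

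The start regions of the 4 members called in A172 are shown because these genes changed in that line. Each is 300 bases of RefSeq's GRCh38.p14 annotation, from 250 bases before the gene's start to 50 bases from it, given 5′ to 3′ on the gene's strand: LAMA4 at chr6:112254518-112254817 (minus strand), LAMB3 at chr1:209652376-209652675 (minus), SPARC at chr5:151686866-151687165 (minus) and THBS1 at chr15:39580829-39581128 (plus). Capitals mark matches, on either strand, to the AP-1 site TGACTCA, the TATA box TATAAA, the GC box GGGCGG and the CCAAT box CCAAT.
LAMA4: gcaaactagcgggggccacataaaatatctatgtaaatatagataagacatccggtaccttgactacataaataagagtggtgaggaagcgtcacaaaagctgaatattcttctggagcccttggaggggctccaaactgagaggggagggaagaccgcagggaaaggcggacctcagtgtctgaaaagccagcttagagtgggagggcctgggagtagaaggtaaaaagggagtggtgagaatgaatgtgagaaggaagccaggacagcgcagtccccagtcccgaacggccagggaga
LAMB3: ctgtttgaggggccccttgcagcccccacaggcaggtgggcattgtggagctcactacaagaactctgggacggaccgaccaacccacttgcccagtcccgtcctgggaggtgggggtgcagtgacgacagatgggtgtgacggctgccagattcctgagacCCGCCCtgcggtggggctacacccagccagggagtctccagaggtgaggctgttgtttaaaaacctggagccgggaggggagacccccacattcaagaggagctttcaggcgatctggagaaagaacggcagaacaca
SPARC: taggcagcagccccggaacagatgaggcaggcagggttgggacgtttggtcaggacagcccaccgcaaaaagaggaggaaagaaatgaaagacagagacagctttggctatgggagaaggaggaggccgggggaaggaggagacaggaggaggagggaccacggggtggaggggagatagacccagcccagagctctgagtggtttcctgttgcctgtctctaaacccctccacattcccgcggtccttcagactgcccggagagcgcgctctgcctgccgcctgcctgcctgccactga
THBS1: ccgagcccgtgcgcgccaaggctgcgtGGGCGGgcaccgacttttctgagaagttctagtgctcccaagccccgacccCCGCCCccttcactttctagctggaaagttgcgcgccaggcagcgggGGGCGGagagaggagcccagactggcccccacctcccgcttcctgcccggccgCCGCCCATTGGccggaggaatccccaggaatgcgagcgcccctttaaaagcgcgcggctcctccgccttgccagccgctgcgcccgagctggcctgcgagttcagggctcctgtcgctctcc
The windows of LAMA4 and SPARC held none of the 4 motifs. LAMB3 held 1 GC box, on the opposite strand at position -88. THBS1, the member that rose, held 4 GC boxes and 1 CCAAT box, the latter on the opposite strand and directly adjoining the last GC box. The AP-1 letters occurred in 4.949% of all 35116 promoters, the TATA box in 11.53%, the GC box in 44.95% and the CCAAT box in 34.61%. RefSeq's promoter table had entries for 37 of the 48 members, of which 2 (LAMA3 and POSTN) held the AP-1 letters, 5 the TATA box, 27 the GC box and 10 the CCAAT box. No entry was found for COL1A1, COL1A2, COL3A1, COL5A2, COL6A1, COL8A1, LAMA1, LAMC3, AGRN, LUM and DCN.

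The matricellular genes SPARC and THBS1 moved apart in A172. SPARC, which binds collagen and loosens cell contacts, read 6.10, 6.45 and 5.98 in A172 controls and 5.44, 5.89 and 5.36 with siLINC00152. The groups did not overlap, and each pair was lower. The change of -0.61 ± 0.13 (SE; adjusted p = 0.0924 with the block, 1.00 without it) left 65.3% of the control signal. The call needed all 3 pairs: without A172 pair 1, 2 or 3 the adjusted p was 0.368, 0.383 and 0.425, with changes between -0.64 and -0.59. In U87-MG SPARC read 1.36, 1.68, 0.34 and 2.14 in controls and 1.06, 1.35, 0.42 and 1.71 with siLINC00152, lower in 3 of 4 pairs with overlapping groups (change -0.25, adjusted p = 0.252). The lines were not shown to differ (difference -0.37, adjusted p = 0.483).

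THBS1 encodes thrombospondin 1, an inhibitor of vessel growth and activator of latent TGF-beta. Its brightest probe, A_24_P142118, read 2.89, 3.24 and 3.05 in A172 controls and 3.54, 3.63 and 3.73 with siLINC00152. The other probe, A_33_P3415820, read 1.60, 2.07 and 1.43 against 2.92, 2.47 and 2.67. On both probes every siLINC00152 array was above every control. The changes were 0.57 ± 0.13 (SE; adjusted p = 0.122), or 149% of control, and 0.99 ± 0.21 (SE; adjusted p = 0.0949), or 198%. The brightest probe was not called without A172 pair 1, 2 or 3 (adjusted p = 0.448, 0.338 and 0.539) or without U87-MG pair 1 or 2 (0.210 and 0.203), and the other not without A172 pair 1 (0.433) or 3 (0.481). Under normexp the brightest probe also passed without the block (0.54, adjusted p = 0.0918). In U87-MG the brightest probe read 2.53, 2.40, 2.92 and 2.29 in controls and 2.66, 2.43, 2.79 and 2.64 with siLINC00152, and the other 2.82, 2.75, 4.49 and 2.37 against 2.79, 2.82, 3.91 and 2.40. Both overlapped, with changes of 0.10 and -0.13. Between the lines a difference was called for A_33_P3415820 (1.11, adjusted p = 0.188) and not for the brightest probe (0.48, adjusted p = 0.381). The former call was lost with quantile normalization (0.218), without A172 pairs 1 (0.447) or 3 (0.516) and without U87-MG pairs 1 (0.298), 2 (0.294) or 4 (0.268). The other matricellular genes with a tested probe were not called: the changes were 0.52 (A172) and -0.10 (U87-MG) for THBS2, -0.08 and -0.17 for TNC, 0.37 (A172) for POSTN and -0.20 (U87-MG) for TGFBI.

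COL1A2 rose in U87-MG. It read 0.42, 0.55, 0.72 and 1.59 in controls and 1.33, 1.48, 1.95 and 2.33 with siLINC00152. Control 4 lay above 2 of the siLINC00152 arrays, so the groups overlapped, but in all 4 pairs the siLINC00152 array was higher. The change was 0.95 ± 0.13 (SE; adjusted p = 0.0156 with the block, 1.00 without it), or 194% of control, and it was called in all 9 alternatives. In A172, where COL1A2 was far brighter, it read 5.48, 5.64 and 5.59 in controls and 5.28, 6.04 and 5.91 with siLINC00152. Pair 1 went down and the others up, for a change of 0.17 (adjusted p = 0.896). Between the lines it differed by -0.78 (adjusted p = 0.221) and was not called, except without U87-MG pair 3 (-0.69, adjusted p = 0.187). COL1A1, which pairs with COL1A2 in type I collagen, was well above background on 0 U87-MG arrays, and in A172 its change was 0.08.

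COL5A1 differed between the lines on 1 of its probes. A_23_P83818 read 2.97, 3.05 and 3.44 in A172 controls and 2.39, 2.71 and 2.97 with siLINC00152, and in U87-MG -0.44, 0.06, 1.23 and 0.98 against -0.05, 0.34, 1.89 and 1.40. The first of these comparisons was lower in 3 of 3 pairs and the other higher in 4 of 4, with overlap in U87-MG. Neither change, -0.46 (adjusted p = 0.170) and 0.44 (adjusted p = 0.0723), had the size for a call, although quantile normalization took the A172 change past it (-0.53). The difference of -0.90 ± 0.15 (SE; adjusted p = 0.0759) was called. Without A172 pairs 1, 2 and 3 its adjusted p was 0.235, 0.208 and 0.355. The other COL5A1 probe, A_33_P3629678, was brighter over all arrays but not in A172. It read 1.90, 2.78 and 2.25 in A172 controls against 2.02, 2.77 and 1.93, and in U87-MG 1.48, 1.55, 1.52 and 0.56 against 1.27, 1.51, 1.04 and 0.89. It showed no such pattern, with a difference of 0.03 (adjusted p = 0.972).

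Further collagens leaned the same way in every pair without being called. COL8A1 read 1.80, 0.18 and 0.84 in A172 controls and 2.26, 0.55 and 1.24 with siLINC00152. In U87-MG it read -1.37, -1.22, -1.22 and -0.69 against -0.96, -0.89, -1.03 and -0.61. It was thus higher in all 7 pairs, with changes of 0.41 (adjusted p = 0.201) and 0.25 (adjusted p = 0.204). COL6A3 in U87-MG read 0.92, 0.75, 1.27 and 1.64 in controls and 1.15, 1.37, 1.55 and 1.83 with siLINC00152 (change 0.33, adjusted p = 0.146). COL5A2 in U87-MG read -1.33, -0.92, -3.29 and 0.35 against -1.23, -0.78, -2.27 and 0.64, both arrays of pair 3 being below background (change 0.39, adjusted p = 0.230). Both genes were higher in 4 of 4 pairs with overlapping groups. For COL5A2 pair 3 differed by 1.02 and the other pairs by 0.09, 0.14 and 0.29, and under normexp its change was 0.06. COL18A1 in A172 read 2.86, 1.53 and 2.28 in controls and 2.26, 1.19 and 2.16 with siLINC00152, lower in all 3 pairs (change -0.36, adjusted p = 0.862). The weaker COL16A1 probe A_23_P160318 was also lower in all 3 A172 pairs (change -0.35, adjusted p = 0.660), and the brightest was not (0.03). For the type IV chains COL4A1 and COL4A2 the changes were -0.11 and 0.04 in A172 and -0.21 and -0.07 in U87-MG.

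VCAN encodes versican, a large hyaluronan-binding proteoglycan of migrating cells. In U87-MG it read 1.94, 1.83, 1.81 and 2.74 in controls and 1.29, 1.07, 1.66 and 2.08 with siLINC00152. All 4 pairs were lower, and only the siLINC00152 array of pair 4 reached into the range of the controls. The change of -0.55 ± 0.13 (SE; adjusted p = 0.0830 with the block, 1.00 without it) left 68.2%. It was not called without U87-MG pair 2 (-0.48, adjusted p = 0.204) or with normexp (-0.33). In A172 VCAN read -0.47, 1.44 and 2.12 in controls and -0.21, 1.94 and 2.05 with siLINC00152, a change of 0.23 (adjusted p = 0.787) with pair 1 far below the rest in both groups. The difference between lines, 0.79 (adjusted p = 0.229), was called without U87-MG pair 3 (0.92, adjusted p = 0.0865) and not otherwise in the alternatives run.

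Fibronectin and the basement membrane linkers were not called. FN1 read -0.12, -0.58 and -0.40 in A172 controls and -0.40, -1.22 and -0.79 with siLINC00152, lower in 3 of 3 pairs (change -0.44, adjusted p = 0.302). Its U87-MG values were 5.47, 5.38, 5.72 and 6.35 against 5.64, 5.61, 6.26 and 6.23 (change 0.21, adjusted p = 0.384). The difference of -0.64 (adjusted p = 0.283) was called only under normexp (-0.56, adjusted p = 0.189). AGRN, the heparan sulfate proteoglycan agrin, read 2.46, 2.52 and 2.30 in A172 controls and 2.20, 2.26 and 2.01 with siLINC00152. Its groups did not overlap, and its change was -0.27 (adjusted p = 0.432). FRAS1, a protein of embryonic basement membranes, read -2.61, -2.55 and -2.96 in A172 controls and -1.87, -2.33 and -2.13 with siLINC00152, also without overlap. Its change of 0.60 (adjusted p = 0.226) was called with quantile normalization (0.54, adjusted p = 0.154) and without U87-MG pair 3 (adjusted p = 0.115). Under normexp the FRAS1 change was 0.24, below the size needed for a call. The 4 probes of HSPG2 changed by values between -0.34 and -0.02 (A172) and between -0.34 and -0.14 (U87-MG), all below 0 and none called.

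Of the enzymes that modify, process and cross-link collagen, LOXL2 was called in both lines and most were called in neither. Of 28 genes, 26 could be tested in A172 and 23 in U87-MG. In the fit with the block, 3 of 33 probes were lower and 1 higher in A172 (beside 2.22% and 1.12% of all probes). In U87-MG 2 of 31 probes were lower and 1 higher (beside 2.78% and 2.77%). LOXL2, which oxidises lysines for cross-links and acts on type IV collagen, read 0.22, -0.22 and -0.09 in A172 controls and -1.40, -2.49 and -1.71 with siLINC00152. In U87-MG it read -1.34, -1.31, -0.10 and -0.97 against -2.01, -2.51, -0.95 and -1.95. It was lower in all 7 pairs, without overlap in A172 and with overlap in U87-MG, where siLINC00152 array 2 was below background. The changes were -1.84 ± 0.17 (SE; adjusted p = 0.00627), leaving 28.0%, and -0.92 ± 0.14 (SE; adjusted p = 0.0235), for which no percent is given because of that array. The A172 call held in all 9 alternatives, at -1.05 under normexp, and the U87-MG call in all but normexp (-0.24). Its difference between lines was -0.91 (adjusted p = 0.185). That call was lost with quantile normalization (0.253), without A172 pairs 1, 2 and 3 (0.292, 0.438 and 0.419) and without U87-MG pairs 1, 2 and 4 (0.325, 0.241 and 0.277).

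LOXL1, which cross-links elastin, read 2.70, 3.52 and 3.00 in A172 controls and 1.88, 2.57 and 1.92 with siLINC00152. These groups did not overlap. The change was -0.95 ± 0.15 (SE; adjusted p = 0.0359), with 0.230 without A172 pair 2 and 0.281 without pair 3. In U87-MG it read 2.08, 2.18, 0.95 and 2.66 against 2.21, 2.45, 1.52 and 2.50, a change of 0.20, and the difference between lines was called (-1.16, adjusted p = 0.0731; 0.235 without A172 pair 2 and 0.355 without pair 3). LOXL4 in A172 read -0.86, 0.10 and -0.97 in controls and -2.35, -0.74 and -1.37 with siLINC00152. It was lower in all 3 pairs with overlap, and its change of -0.91 (adjusted p = 0.168) was called in 2 of 9 alternatives. It was not called without A172 pairs 1, 2 and 3 (0.594, 0.515 and 0.286) or U87-MG pairs 1, 2 and 4 (0.241, 0.232 and 0.204) or with quantile normalization (0.202), and was -0.51 under normexp. LOXL3 in U87-MG read 0.67, 0.94, -1.38 and 1.14 against 1.07, 1.27, 0.22 and 1.50, higher in all 4 pairs, with control 3 below background. Its change of 0.67 (adjusted p = 0.196) was called in 0 of 9 alternatives, the change being 0.36 without U87-MG pair 3 and 0.34 under normexp, and a weaker LOXL3 probe was not called (0.32). The founding member of the family, LOX, had changes of 0.86 and 0.74 that were not called (adjusted p = 0.439 and 0.223). The other calls were on the weaker probe of their gene: the procollagen proteinase TLL1 in A172 (1.36, adjusted p = 0.118, and 0.368, 0.351 and 0.548 without A172 pairs 1, 2 and 3 and 0.205 with quantile normalization) and the propeptidase ADAMTS2 in U87-MG (-0.83, adjusted p = 0.150, and 0.206 and 0.221 without A172 pairs 2 and 3). TLL1 was above background on 2 of 3 A172 controls and ADAMTS2 on 3 of 4 U87-MG controls and 2 of 4 siLINC00152 arrays. Under normexp the TLL1 change was 0.51, and the ADAMTS2 change was -0.16 and not called. ADAMTS2 could not be tested without U87-MG pairs 2, 3 or 4.

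**Figure D4:**
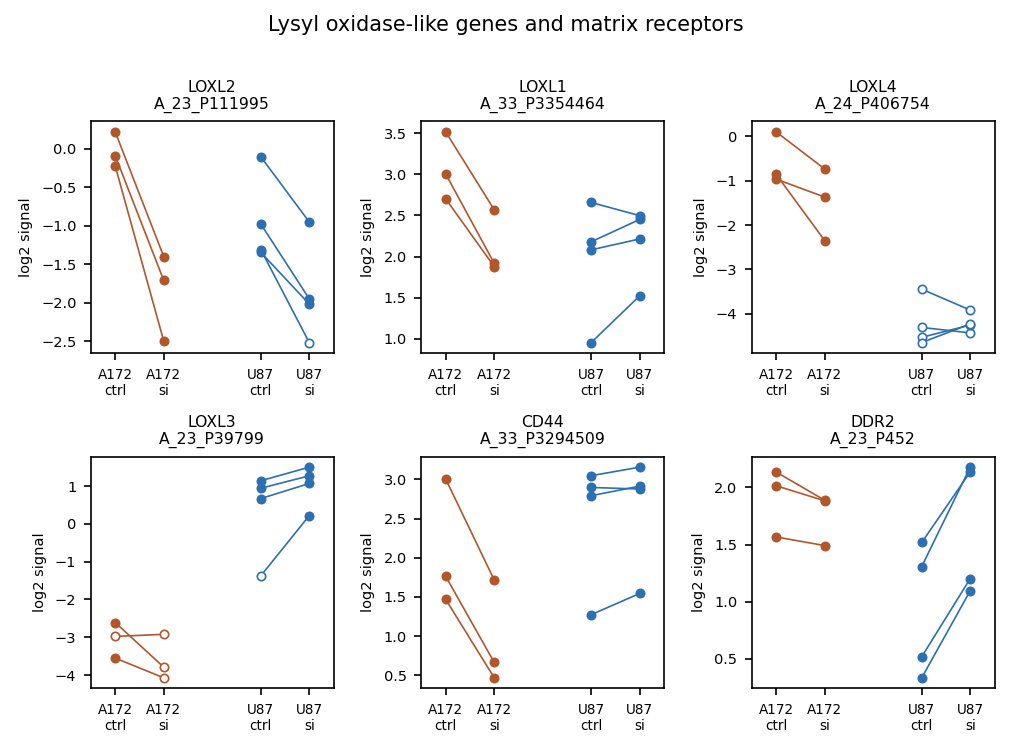
Log2 signal (vertical axis) of the called lysyl oxidase-like genes and of the receptors CD44 and DDR2, with lines joining the control (ctrl) and siLINC00152 (si) array of each pair for A172 (brown, 3 pairs) and U87-MG (blue, 4 pairs), and open points where a probe was not well above background. LOXL2 falls in all 7 pairs, CD44 and LOXL1 fall in all A172 pairs, and DDR2 rises in all U87-MG pairs.

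A list of 9 genes held matrix receptors other than integrins, and UTRN (utrophin), which is not itself a matrix receptor. In A172, 17 probes of 8 genes were tested, with 2 lower in the fit with the block (beside 2.22% of all probes). These were CD44 and, on a weaker probe, UTRN. In U87-MG, 16 probes of 7 genes were tested, with 1 lower and 1 higher (beside 2.78% and 2.77%). CD44, the hyaluronan receptor, read 3.00, 1.76 and 1.47 in A172 controls and 1.72, 0.66 and 0.47 with siLINC00152 on its brighter probe. Control 3 was below siLINC00152 array 1, but every pair went down. The change was -1.13 ± 0.12 (SE; adjusted p = 0.00753), leaving 45.8%. The U87-MG values were 2.79, 2.90, 1.27 and 3.05 against 2.91, 2.88, 1.54 and 3.15, a change of 0.12. The A172 call and that of the difference between lines (-1.25, adjusted p = 0.0289) held in all 9 alternatives. The other CD44 probe had an A172 change of -0.24 that was not called. DDR2, a receptor tyrosine kinase for fibrillar collagen, read 0.52, 0.34, 1.31 and 1.52 in U87-MG controls and 1.20, 1.1, 2.18 and 2.14 with siLINC00152. Every pair was higher although the groups overlapped. Its change of 0.73 ± 0.09 (SE; adjusted p = 0.0120), or 166% of control, was called in all 9 alternatives. In A172 DDR2 read 2.13, 1.57 and 2.01 against 1.89, 1.49 and 1.88, a change of -0.15. Its difference between lines was -0.88 (adjusted p = 0.0646; 0.202, 0.202 and 0.305 without A172 pairs 1, 2 and 3).

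The remaining calls in these lists were weak. A probe of UTRN (utrophin) in A172 gave -0.55 (adjusted p = 0.166), and 0.532, 0.545 and 0.494 without A172 pairs 1, 2 and 3. It was also not called without U87-MG pairs 1, 2 or 4 (0.253, 0.224 and 0.241) or under normexp (-0.40). BCAM, a receptor for laminin alpha 5, was called lower in U87-MG (adjusted p = 0.176), but with siLINC00152 it was above background on 0 of 4 arrays, so no change is given. The adjusted p was 0.212, 0.238 and 0.250 without A172 pairs 1, 2 and 3. Normexp took the change to -0.06 (adjusted p = 0.747), and quantile normalization also ended the call (0.271). BCAM could not be tested without U87-MG pairs 1, 2 or 4. Of 53 further core matrix genes, 35 were tested in A172 and 24 in U87-MG. In A172 2 of 47 probes were lower, both of 1 gene (beside 2.22% of all probes). In U87-MG 1 of 34 probes was higher (beside 2.77%). The gene called in A172 was TNXB (tenascin X), where 2 of its 5 probes fell (-0.84 and -0.52, adjusted p = 0.0888 and 0.0916) and the brightest did not (-0.03). Without A172 pairs 1, 2 and 3 the former probe had adjusted p of 0.353, 0.448 and 0.324 and the latter 0.334, 0.484 and 0.351, with -0.48 and no call under normexp. The gene called in U87-MG was EFEMP2 (fibulin 4) (0.59, with 3 of 4 controls above background, adjusted p = 0.117, and 0.250 and 0.239 without U87-MG pairs 1 and 4), and it was not called under normexp (0.22).

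The pericyte markers PDGFRB and ACTA2 were called lower in A172. PDGFRB read -0.19, -0.24 and -0.49 in A172 controls and -0.82, -1.06 and -1.36 with siLINC00152, without overlap. ACTA2 read -1.09, -1.77 and -2.40 against -1.84, -2.34 and -2.81, with overlap. Their changes were -0.77 (adjusted p = 0.0797) and -0.58 (adjusted p = 0.165). These were 2 of 6 tested probes (beside 2.22% of all probes called lower), from 2 of 5 tested genes of the list of 7. PDGFRB was not called without A172 pairs 1, 2 and 3 (0.253, 0.388 and 0.425), nor ACTA2 (0.562, 0.534 and 0.436), and ACTA2 was also not called without U87-MG pairs 1, 2 or 4 (0.243, 0.230 and 0.246). Under normexp neither was called (-0.46 and -0.22), and with quantile normalization ACTA2 was not (0.258). All 6 tested probes of the list had a change below 0, with a median of -0.51. The summed signal of the list, in multiples of the 75th percentile, was 24.3, 56.4 and 32.0 in A172 controls and 24.9, 49.0 and 27.0 with siLINC00152, and most of it came from DES (mean log2 signal 4.91 and 4.83). The summed level was thus lower in pairs 2 and 3 and higher in pair 1. In U87-MG the sum was 19.3, 18.9, 18.7 and 14.0 in controls and 17.9, 18.9, 15.6 and 12.7 with siLINC00152. PDGFRA and FAP stayed at background in both lines. The part of these markers in the matrix results was not tested.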

How the data were processed

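RNA of 14 cultures was measured on Agilent single-colour arrays. Per the file headers, the authors extracted spot intensity (processed signal after background removal, median signal and median background) by the software Feature Extraction (version 11.5.1.1), and the design carries an hg19 annotation. The authors also deposited log2 values normalized between arrays, for which the study's methods refer to a published workflow (TAPIR) without giving the steps. The labels give 40 h after transfection, and the paper's text gives another time.

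The log2 processed signal was reduced by the array's percentile 75 over 58717 non-control spots, spots marked as outliers by the software were left out, and spots of a probe were averaged. Of 50599 probes, 29033 were named by matching accessions to RefSeq's GRCh38.p14 gene table, giving 20992 genes. Testing required at least 3 arrays of a compared group on which at least 0.5 of a probe's spots were well above background. For the difference between lines this had to hold in both lines. limma 3.58.1 (R 4.3.3) compared the groups, with 1 model of 4 group means over all arrays and Benjamini-Hochberg adjustment over all probes tested in a comparison. Calls needed an FDR below 0.2 and a log2 change above 0.5 in size. Another fit took line and set number as a replicate block. The pairing was checked by correlating, across probes, each array's deviations from its group mean: same-number arrays gave r of 0.792, 0.794 and 0.675 in A172 and 0.373, 0.569, 0.857 and 0.864 in U87-MG, against -0.701 to -0.0436 and -0.772 to 0.411 for other combinations. Deviations from a group mean cancel out over the group, so that a positive r for same-number arrays pushes the other r values down. That contrast is thus partly built in. In U87-MG the siLINC00152 array 1 was slightly closer to control 2 than to control 1. The number of arrays limits the precision.

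All members are accounted for. A gene is described by its probe with the highest mean signal, and other tested probes of a member are named, or given as a range, where their call differs. Values of every array are given for members called in either fit and, up to 8 per line and direction, for members changed in the same direction in every pair. Of the pathway and marker lists the called genes are named. LOX and a few members that were not called were added after their values were seen. The members and lists were chosen with earlier results of these data known. The code was tested on simulated data.

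Alternatives were normexp background correction (offset 50, on median signals), quantile normalization, the authors' log2 values, no filter and a stricter filter on dim probes, outlier spots kept, each line alone, a variance trend with robust estimation, an FDR of 0.05, the replicate block and each replicate left out. For the block these were normexp, quantile normalization and each of the replicates left out, 9 alternatives in all. Array coordinates were not used. The paper's other experiments were left out.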

Additional observations from a re-analysis of the deposited data

Results flagged for a closer look

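Effects of the knockdown differed between A172 and U87-MG for 5 matrix probes in the fit with the replicate block, where the difference is the A172 change minus the U87-MG change. They were LAMB3 (-1.53), LAMA4 on A_33_P3308749 (-1.49) and on A_33_P3308744 (-1.89), COL5A1 on A_23_P83818 (-0.90) and THBS1 on A_33_P3415820 (1.11). The LAMB3 and A_33_P3308749 differences passed in all 9 alternatives, the others in 6, 6 and 3 of 9. What makes the lines differ was not tested.

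Single arrays stood apart from the other 3 of their group in 5 of 58 groups compared by Dixon's value, which chance does in about 1 of 20 groups. COL5A1 on A_33_P3629678 was lowest in U87-MG control 4 (0.56). COL16A1 was highest in U87-MG control 3 (1.80), the dimmest array. LAMB2 was lowest in U87-MG siLINC00152 array 3 (2.66), where the other 3 arrays read 2.69. LAMC3 was lowest in U87-MG siLINC00152 array 4 (-0.0036). VCAN was highest in U87-MG control 4 (2.74). The source of these values was not tested.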

How the results depend on the processing

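For the A172 knockdown, 52 probes were called, and 133 with normexp, 34 with no filter on dim probes, 14 with each line alone, 27 at an FDR of 0.05 and 945 with the replicate block. Matrix probes called in A172 went from 0 to 1 with normexp and 6 with the block. For U87-MG, 11 became 3 with normexp, 7 at an FDR of 0.05 and 1216 with the block, and matrix probes went from 0 to 4 with the block. The difference between lines had 2, and 0 with normexp, 1 with quantile normalization, 1 in the authors' values, 1 at an FDR of 0.05 and 280 with the block, which called 5 matrix probes. Control levels had 15409 calls and 32736 with no filter. With the block, normexp gave 142 calls in U87-MG, 1 of them a matrix probe, and 432 for the difference.

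Leaving out 1 replicate at a time gave 4 (without A172 pair 3) to 129 (without U87-MG pair 3) calls in A172, 0 to 1 of them matrix probes, 3 to 27 in U87-MG with 0 matrix probes, 0 to 3 for the difference with 0 matrix probes, and 12684 to 16427 for control levels with 32 to 40 matrix probes. With the block the ranges were 243 to 1439 in A172 (matrix 1 to 7), 842 to 1143 in U87-MG (matrix 2 to 3) and 35 to 654 for the difference (matrix 2 to 7). With 1 replicate left out, the change of the knockdown target stayed between -2.72 and -2.49 in A172 and between -2.82 and -2.59 in U87-MG. Under normexp it lay outside these ranges, at -2.23 in A172 and -1.52 in U87-MG.

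Under normexp the control difference, U87-MG minus A172, changed sign for COL1A1 (0.28), COL12A1 (0.45), LAMA2 (0.31), LAMC3 on A_33_P3277532 (0.66, called only under normexp) and FRAS1 (0.55), all of them at background in U87-MG. No other matrix probe changed sign where it was called in either setting, but some called in neither did, such as LAMA4 on A_33_P3308749 (0.20 and -0.24). The cause of these changes was not tested. Signal over background limits U87-MG most, where 19 of 48 genes had no probe to test.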

Other observations

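Some members gave readings that differed in the same direction in every pair of a line while staying under the background limit. Such readings cannot show whether the transcript changed, so no fold is given. POSTN in U87-MG read -2.87, -3.07, -2.29 and -3.43 in controls and -4.30, -4.13, -3.57 and -4.50 with siLINC00152, with every siLINC00152 array below every control. COL6A3 in A172 read -4.87, -5.29 and -4.95 in controls and -3.86, -4.21 and -4.07 with siLINC00152, with every siLINC00152 array above every control. None of these arrays was well above background for the probe, and the values were not tested.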
